A study of Homo sapiens with 17 samples.

Results

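TRNH, TRNS2, and TRNL2 are 3 mitochondrial tRNA genes that lie side by side between ND4 and ND5, and they were chosen by that position and not by any measured value. They make up 3 of the 37 genes of the human mitochondrial genome. Each has a row of kind gene and a row of kind tRNA among the 99 annotated features that were counted, so that 6 rows were examined in all 17 libraries. In the deposited annotation of the mitochondrial chromosome (MT, the revised Cambridge reference sequence), TRNH occupies positions 12138 to 12206 of the plus strand and encodes tRNA-His. TRNS2 occupies positions 12207 to 12265 and encodes a tRNA-Ser, and TRNL2 occupies positions 12266 to 12336 and encodes a tRNA-Leu. The genes are 69, 59, and 71 bases long. ND4 ends at position 12137 and ND5 begins at position 12337, so that no base separates any of the 5 genes.

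The heavy-strand promoter of human mitochondrial DNA gives a long polycistronic RNA in which most coding and rRNA genes are bordered by tRNAs. RNase P cuts at the 5′ end of each tRNA and ELAC2 at its 3′ end, and the messenger RNAs on either side are released by the same cuts. ND4 and ND5, whose RNAs border this cluster, encode core subunits of respiratory complex I. tRNA-His reads the histidine codons, the TRNS2 product reads the AGY serine codons and lacks the D-arm of a standard tRNA, and the TRNL2 product reads the CUN leucine codons.

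Double-stranded RNA was precipitated from lysates with the J2 antibody, polyadenylated in vitro, amplified as cDNA, and sequenced as nanopore long reads (RIP-seq). The libraries came from H1437, H23, and PC9, which are human non-small cell lung carcinoma lines. They comprise 9 untreated libraries, with replicates 1 to 3 of each line. A second experiment holds 1 control and 1 IMT1 library of each line (IMT1 inhibits the mitochondrial RNA polymerase), and the last one holds 1 H23 library with ADAR1 KD, a knockdown of an RNA-editing enzyme by siRNA, and 1 H23 control. The labels do not call these controls by that name, and they were recognized by the names of their alignments. Headings of the study's supplement name H1944 in place of H1437, also for the IMT1 experiment, and the labels were followed here. The study speaks of independent experiments, but the labels do not say how the cultures were grown, and P values measure the spread between these libraries.

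Total reads ranged from 37113 to 6295486 per library and reads mapped to the mitochondrial genome from 4100 to 191062, and the smallest library was the ADAR1 KD library. H1437 replicate 1 and PC9 replicate 1 stood apart from the others. In these libraries the gene rows of TRNH, TRNS2, and TRNL2 all held 0 counts, as did those of 18 and 20 of the 22 tRNA genes in all. Every coding and rRNA gene row held counts in both, and H1437 replicate 1 was the library with 6295486 total reads. The main results on the cell lines are therefore given with and without H1437 replicate 1 and PC9 replicate 1. Levels are given as counts on the tRNA row per 1000000 total reads, mapped and unmapped (CPM), unless another scale is named. Reads that lie on the opposite strand of a gene may be among its counts, since the sources used here do not say whether the counting used strand.

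TRNH gave the highest single value of the cluster, in an H1437 library, and differed between replicates of a line more than between lines. H1437 replicates 1, 2, and 3 held TRNH at 7.31, 328, and 11223 CPM. The level was 204, 2472, and 400 CPM for H23 and 5.99, 270, and 1090 CPM for PC9 in the same order. The ranges of the lines overlapped, and H1437 held both a value far below and the value far above those of H23. The highest H1437 value was 1536 times the lowest, against 12.1 times in H23 and 182 times in PC9. Replicate 3 of H1437 rested on 7607 counts, which were 27.6% of all counts on the 22 tRNA rows of that library, whereas TRNH took between 0.124% and 9.94% of them in the other 8 untreated libraries.

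TRNS2 was present at 1.11, 478, and 1443 CPM in H1437 replicates 1, 2, and 3, and at 613, 3931, and 449 CPM in H23. PC9 replicate 1 had 0 counts of 501188 total reads, which allows up to 5.99 CPM (3 counts, counting error only), and the other PC9 replicates had 435 and 1205 CPM. H23 replicate 2 was the highest of the 9 libraries, but H23 replicate 3 lay below the highest libraries of H1437 and PC9, so that the lines again overlapped.

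TRNL2 had the fewest counts of the 3 genes in 7 of the 9 untreated libraries when compared per base. Replicates 1, 2, and 3 gave 4.13, 36.04, and 217 CPM for H1437, then 16.4, 160, and 99.6 CPM for H23, then 2.00, 36.5, and 26.3 CPM for PC9. These values rested on between 1 and 147 counts per library, and the lines overlapped. Over all 17 libraries TRNL2 had the lowest median level per kilobase of the 22 tRNA genes, 515 CPM per kilobase, against 3605 for TRNH (rank 12) and 7368 for TRNS2 (rank 6).

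**Figure D1:**
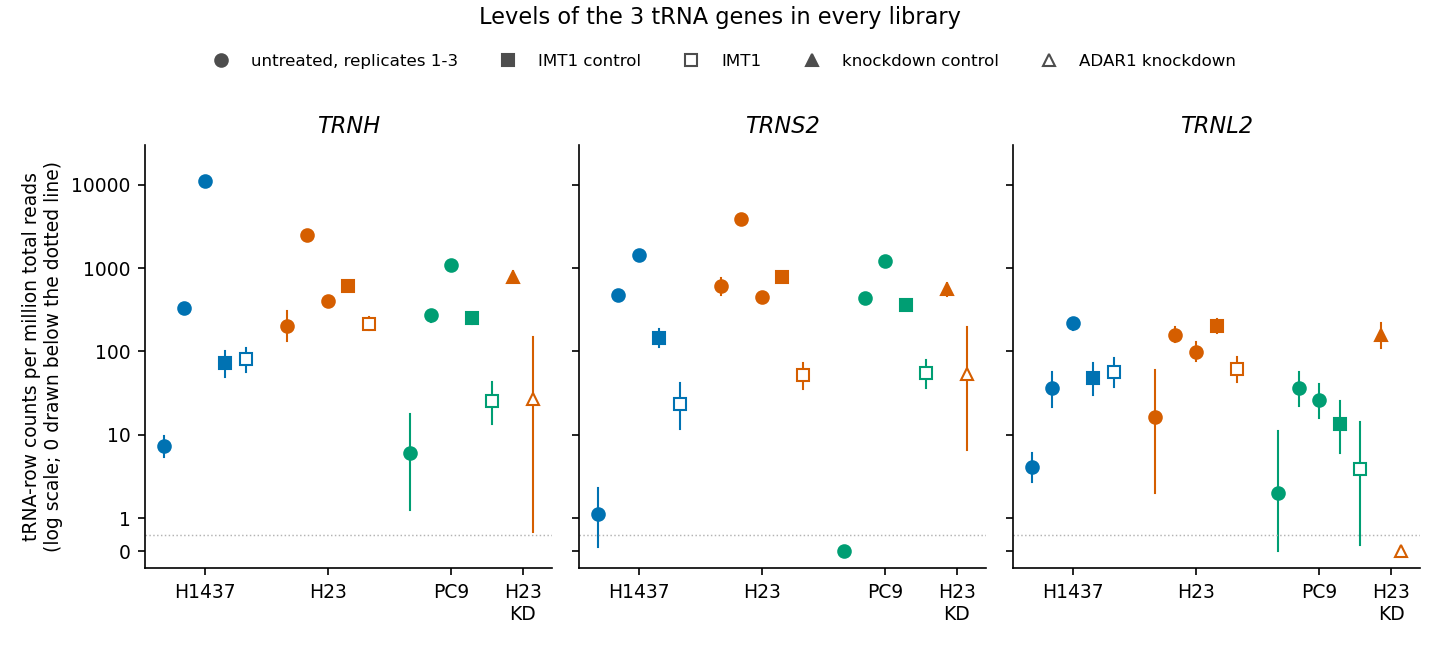
Counts on the tRNA row in CPM (log axis, with 0 drawn below the dotted line) of TRNH, TRNS2, and TRNL2 in each library, colored by cell line. Vertical bars are exact Poisson 95% intervals and cover counting error only. Replicate 1 of H1437 and of PC9 sit lowest in each panel among the untreated libraries, and H1437 replicate 3 sits highest for TRNH at 11223.

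None of the 3 genes passed 0.05 between the lines in a two-sided exact permutation test of the F statistic over the 9 untreated libraries. P was 0.839 for TRNH, 0.589 for TRNS2, and 0.582 for TRNL2, and 0.839, 0.627, and 0.627 after Benjamini-Hochberg adjustment over all 37 genes. After adjustment 0 of the 37 genes passed 0.05 (0%). Before adjustment 13 did (35.1%), none of them in this cluster. The means ± SD of H1437, H23, and PC9 (n = 3 each) were 3853 ± 6385, 1025 ± 1256, and 455 ± 565 CPM for TRNH. They were 641 ± 735, 1664 ± 1965, and 546 ± 610 for TRNS2, and 85.7 ± 115, 91.8 ± 71.9, and 21.6 ± 17.7 for TRNL2. The SD exceeded the mean in 7 of these 9 groups. Without H1437 replicate 1 and PC9 replicate 1 the adjusted P of the exact test was 0.608 for TRNH, 0.914 for TRNS2, and 0.681 for TRNL2. Of the same-numbered libraries, H1437 lay above PC9 in 3 of 3 pairs for TRNH and TRNS2 and in 2 of 3 for TRNL2, and 11 of the 37 genes had 3 of 3 (29.7%).

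The same comparison was made for the neighbouring complex I genes. ND4 averaged 288 ± 114, 3561 ± 1820, and 345 ± 403 CPM on its CDS row in H1437, H23, and PC9 (SD, n = 3 each), and all 3 H23 libraries lay above the other 6 (exact permutation P = 0.0357, 0.110 after adjustment). ND5 averaged 317 ± 333, 3430 ± 3037, and 462 ± 609, with overlapping ranges (exact permutation P = 0.0643, 0.145 after adjustment). Of all 37 genes, 12 had every H23 library above every other library (32.4%), and 0 of the 3 tRNA genes did. The mean was highest in H23 for 34 of the 37 genes, including TRNS2 and TRNL2 but not TRNH. The 34 and 12 genes were counted in CPM only. The mapped share of reads was 11.0%, 17.0%, and 24.4% in H23 replicates 1, 2, and 3. It was 3.03%, 4.77%, and 6.63% in H1437, and 1.89%, 7.45%, and 2.60% in PC9. Scaled to mapped reads, the mean was highest in PC9 for TRNS2 and in H1437 for TRNL2 and TRNH. On that scale all 3 H23 libraries still lay above the other 6 for ND4.

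Gene-row counts, scaled to the other mitochondrial genes, were compared with edgeR. All 3 genes passed the filter (10 counts or more in 3 or more libraries), as did 35 of the 37 genes. No gene was called in any of the 3 contrasts (0 of 35, 0%), and 0 of 35 had an unadjusted P under 0.05 in each. For H23 against H1437 the log2 fold change in edgeR was -4.91 (SE 2.93) for TRNH, -1.08 (SE 2.20) for TRNS2, and -3.78 (SE 2.32) for TRNL2, with adjusted P of 0.548, 0.823, and 0.548. For H23 against PC9 it was -1.70 (SE 2.55), -0.88 (SE 2.19), and -0.92 (SE 2.14), each with an adjusted P of 0.873 in edgeR. No direction can be read for TRNH and TRNS2, or for TRNL2 against PC9, since signs turned with the setting. For H23 against H1437, TRNL2 was negative in every setting, from -5.10 with DESeq2 to -0.052 without H1437 replicate 3. It passed the adjusted threshold in none of them. For H23 against H1437, TRNH gave 0.72 without H1437 replicate 3 and 0.77 with the replicate block, and TRNS2 gave 1.38 with total reads as library size and 2.64 with the block. For H23 against PC9, all 3 genes turned positive with total reads as library size. The standard errors of about 2 to 3 log2 units leave differences of several-fold undetectable with these libraries. Without H1437 replicate 1 and PC9 replicate 1, edgeR again called 0 of 35 genes in each contrast, and 8 and 6 genes had an unadjusted P under 0.05 for H23 against H1437 and against PC9.

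For H1437 against PC9, TRNH and TRNL2 passed the threshold in 1 edgeR fit, that of these lines alone with libraries of the same replicate number paired. In the unpaired edgeR fit of all 3 lines the log2 fold change of H1437 over PC9 was 3.21 (SE 2.70, adjusted P = 0.933) for TRNH and 2.87 (SE 2.27, adjusted P = 0.933) for TRNL2. In an edgeR fit of these lines alone with the replicate number as a block it was 1.94 (SE 0.76, adjusted P = 0.0422) for TRNH and 2.43 (SE 0.65, adjusted P = 0.00419) for TRNL2. TRNS2, which lies between them, gave 0.21 (SE 0.68, adjusted P = 0.790) in that fit. There 10 of 33 genes were called (30.3%), 9 of them higher in H1437 (27.3%), TRNH and TRNL2 among them. Replicate 1 held 0 gene-row counts of the 3 genes in both lines, so these values rest on replicates 2 and 3. In the fit of all 3 lines with the block, the adjusted P was 0.967 for TRNH and for TRNL2 in edgeR, and 0 of 35 genes were called. In the fit of these lines alone without the block it was 0.995 for TRNH and for TRNL2, and 0 of 33 genes were called. Without H1437 replicate 3 the unpaired log2 fold changes were -2.42 for TRNH and -0.87 for TRNL2.

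The order of the 3 genes per base was most often TRNS2, TRNH, and TRNL2 from high to low, as in 11 of 17 libraries. TRNH led in the other 6. The order TRNH, TRNL2, TRNS2 was found in H1437 replicate 1, PC9 replicate 1, and the H1437 IMT1 library, and the order TRNH, TRNS2, TRNL2 in H1437 replicate 3, the H23 IMT1 library, and the H23 control of the knockdown. TRNL2 was lowest in 14 of 17 libraries. These are descriptions without a test, and some rest on few reads: the 3 genes together held 4 counts in PC9 replicate 1 and 3 counts in the ADAR1 KD library. The tRNA rows need not hold like reads. In the H23 control of the knockdown, 166 of 175 TRNH counts and 34 of 35 TRNL2 counts were absent from the gene row. For TRNS2 it was 0 of 124, and on gene rows TRNS2 led per base in that library. Reads that span several of the 3 genes may be missing from all these rows.

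Among the untreated libraries the TRNS2 level per base was 0.178, 1.70, and 0.150 times that of TRNH in H1437 replicates 1, 2, and 3. For H23 the ratios were 3.51, 1.86, and 1.31, and for PC9 0, 1.88, and 1.29. The 3 H23 libraries and PC9 replicates 2 and 3 thus lay above 1, and H1437 lay on both sides of it. The TRNH level per base was 1.82 to 53.2 times that of TRNL2 in the 9 untreated libraries, above 1 in each.

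**Figure D2:**
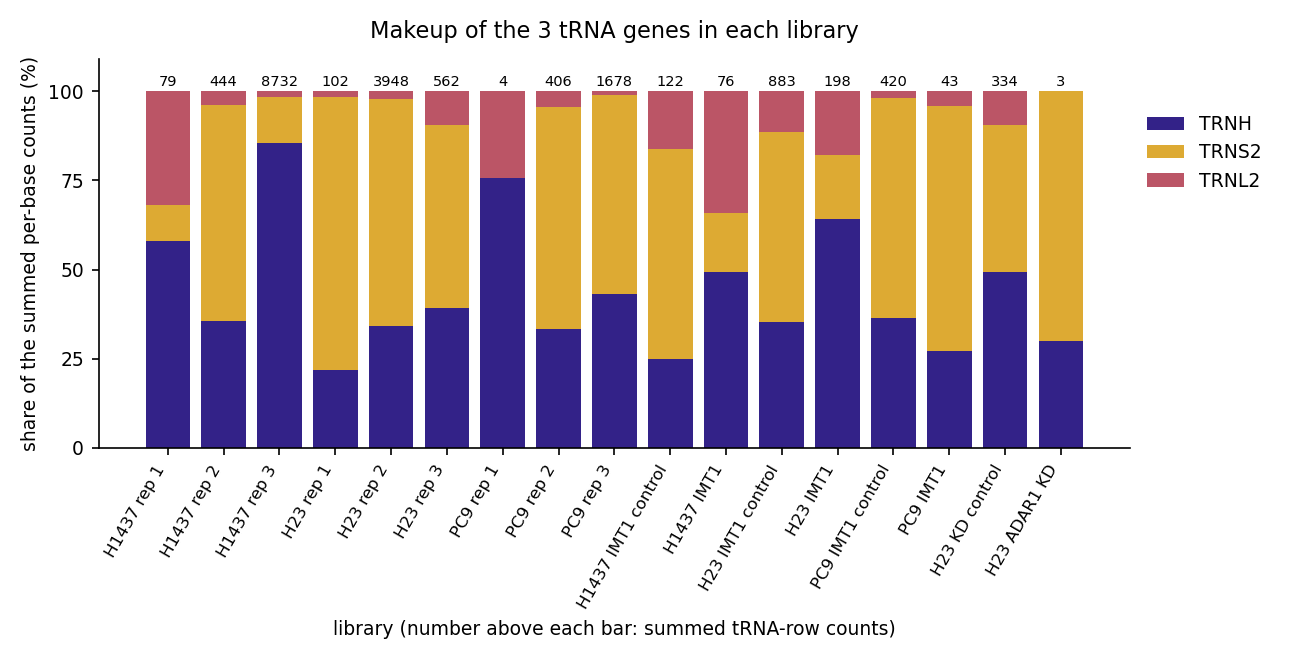
Share of each gene in the summed per-base tRNA-row counts of TRNH, TRNS2, and TRNL2 in each library, in percent, with the summed counts above each bar. TRNS2 takes the largest share in 11 of 17 libraries, and TRNH reaches 85.5% in H1437 replicate 3.

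Counts on the gene row were then set against counts on the tRNA row of the same interval. featureCounts can leave out a read that overlaps several features of the kind being counted. Where that is done, a read that runs from TRNH into ND4 is lost from the gene rows but kept on the tRNA row of TRNH, because ND4 has no row of kind tRNA. A read that runs from TRNS2 into TRNH or TRNL2 would be lost from both kinds of row. Equal rows of TRNS2 therefore do not show whether its reads run into its neighbours. The study's methods describe this setting in 2 ways, and which of them made these rows was not tested. The share of tRNA-row counts also held by the gene row is given here as a measured ratio.

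For TRNS2, whose neighbours on either side are tRNA genes, gene row and tRNA row held the same count in 15 of the 16 libraries with any count. The exception was H1437 replicate 1, with 7 counts on the tRNA row and 0 on the gene row. For TRNH, which abuts ND4, the rows were equal in 0 of 17 libraries. The median share of TRNH was 80.0%, with a range of 0% to 99.3%. For TRNL2, which abuts ND5, the rows were equal in 2 of 16 libraries and the median share was 24.3%, with a range of 0% to 100%.

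Among the untreated libraries, H1437 replicates 1, 2, and 3 had TRNH shares of 0%, 91.3%, and 99.3%. The H23 shares of TRNH were 80.0%, 90.8%, and 33.3%, and the PC9 shares 0%, 83.1%, and 98.9%. For TRNL2 the shares were 0%, 63.2%, and 100% with H1437, 0%, 53.1%, and 18.6% with H23, and 0%, 30.0%, and 78.9% with PC9. In H1437 and in PC9 both genes had their lowest share in replicate 1 and their highest in replicate 3, and the lines overlapped. The range between line means was 7.38 percentage points for TRNH (exact permutation P = 0.971) and 30.5 percentage points for TRNL2 (exact permutation P = 0.646), both with an adjusted P of 1.00 over the 22 tRNA genes. Without H1437 replicate 1 and PC9 replicate 1 it was 27.2 percentage points for TRNH (exact permutation P = 0.448) and 57.7 for TRNL2 (exact permutation P = 0.257), each with the highest mean in H1437. For TRNS2 it was 33.3 percentage points and came from H1437 replicate 1 alone. Of these 22 genes, 0 passed an adjusted P of 0.05 (0%). The Wilson 95% interval of the TRNL2 share was 41.0% to 80.9% in H1437 replicate 2 and 0% to 65.8% in H23 replicate 1, the latter resting on 2 counts.

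The same division, which such a way of counting would itself give, was seen over all 22 tRNA genes. In the 6 genes whose nearest genes on either side are tRNA genes (TRNS2 and 5 others), the rows were equal in 90 of 95 library values (94.7%). In the 16 genes with a coding or rRNA neighbour, TRNH and TRNL2 among them, they were equal in 3 of 270 (1.11%). TRNH had the highest median share of these 16. Summed over all libraries, gene rows held 92.0% of the tRNA-row counts of TRNH, 99.9% of those of TRNS2, and 45.3% of those of TRNL2. For the cluster as a whole this was 93.0%, against 56.2% for the TRNI, TRNQ, TRNM cluster and 39.1% for the TRNW, TRNA, TRNN, TRNC, TRNY cluster. The medians over the 17 libraries were 67.2%, 59.8%, and 35.1%. H1437 replicate 3 contributed 7550 of the 10498 gene-row counts of TRNH.

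**Figure D3:**
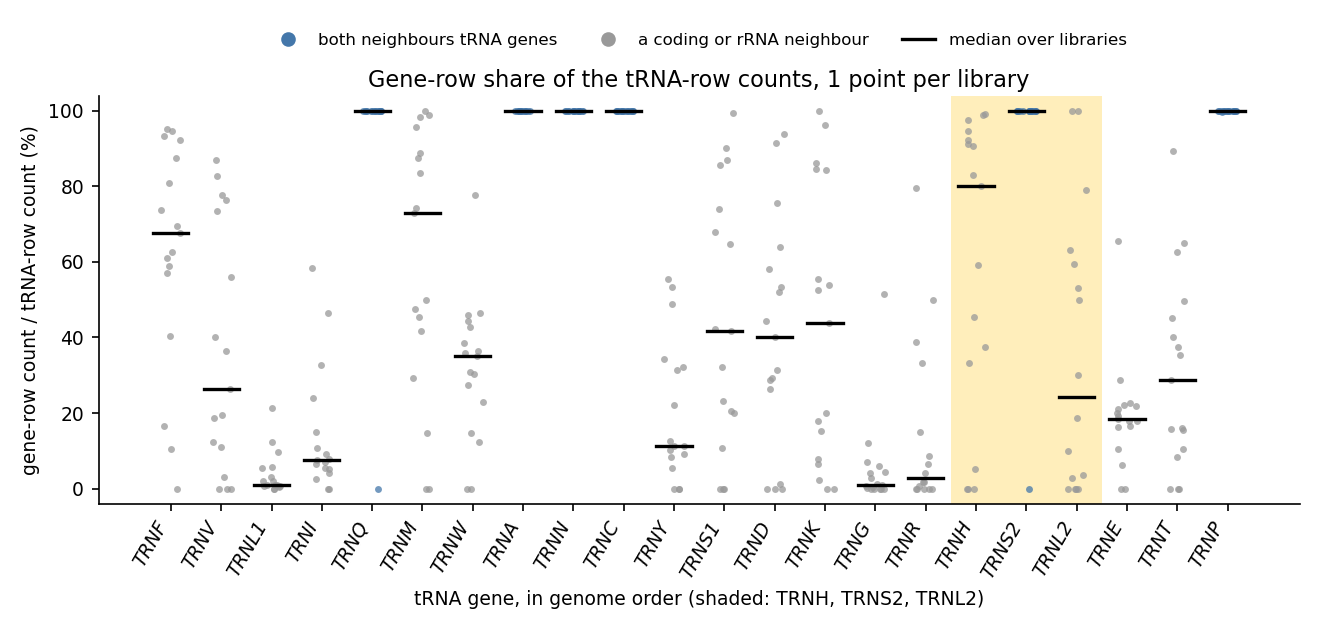
Gene-row count as a percent of the tRNA-row count of each of the 22 tRNA genes in genome order, with 1 point per library that has any count and a bar at the median. TRNS2 and the other genes with tRNA neighbours sit at 100% in nearly all libraries, while TRNH (median 80.0%) and TRNL2 (median 24.3%) spread from 0% upward.

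The counts that stand on the tRNA row and not on the gene row varied with the abutting coding gene, with which they can share reads. For TRNH this difference came to 7.31, 28.5, and 84.1 CPM in H1437 replicates 1, 2, and 3. H23 had 40.9, 228, and 267 CPM, and PC9 had 5.99, 45.7, and 12.4 CPM. TRNH gene-row CPM, by contrast, had medians of 300, 164, and 225 in H1437, H23, and PC9. Across the 17 libraries the TRNH difference had a Spearman's rho of 0.83 with the ND4 level and of 0.58 with the TRNS2 level. The TRNH gene row had a rho of 0.09 with ND4 and of 0.83 with TRNS2. Where gene rows leave out reads that overlap several genes, a read from TRNH into ND4 counts in the TRNH difference and in ND4. The rho between that difference and ND4 may then be partly built in. The TRNH difference was 158 counts beside 3054 ND4 counts in H23 replicate 3, and 57 beside 193 in H1437 replicate 3.

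For TRNL2 the difference between rows was 4.13, 13.3, and 0 CPM in H1437 replicates 1, 2, and 3, 16.4, 74.8, and 81.0 in H23, and 2.00, 25.6, and 5.53 in PC9. Its rho with the ND5 level was 0.79 and with the TRNS2 level 0.28, whereas the TRNL2 gene row had a rho of 0.19 with ND5 and of 0.63 with TRNS2. The TRNL2 difference can share reads with ND5 in the same way as TRNH with ND4. These correlations describe 17 libraries from 3 lines and 3 experiments that share total reads as their denominator, and no P is given.

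**Figure D4:**
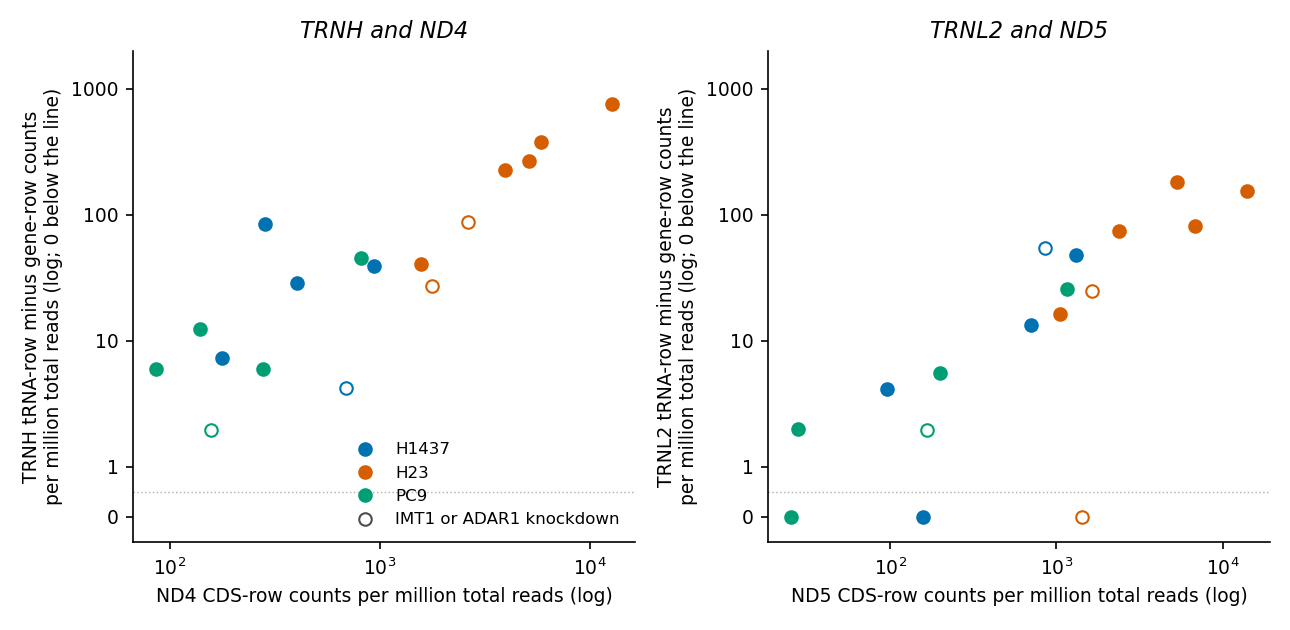
Counts on the tRNA row minus counts on the gene row, in CPM, of TRNH against the ND4 level (left) and of TRNL2 against the ND5 level (right), on log axes with 0 drawn below the dotted line. Each point is a library, colored by line and open for IMT1 or ADAR1 KD, and higher values of the 2 axes go together (rho 0.83 for TRNH and 0.79 for TRNL2, n = 17). The 2 axes can share reads.

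IMT1 was compared with the control of each line, and TRNS2 was the gene of the cluster with a lower level in all 3 lines. TRNS2 stood at 146 CPM in the H1437 control and 23.2 with IMT1, at 789 and 51.5 in H23, and at 360 and 54.7 in PC9. The IMT1 values lay 6.28-fold, 15.3-fold, and 6.57-fold below the controls, and their counting intervals did not meet. The mean log2 ratio was -3.10 ± 0.72 (SD, n = 3 pairs), the lowest of the 36 genes with a value in every pair. The exact sign-flip permutation P was 0.25, the smallest that 3 pairs allow. Per 1000000 mapped reads the log2 ratio of TRNS2 was -0.44, -2.30, and -1.94 in H1437, H23, and PC9, and thus also below 0 in each. The H1437 value rested on 67 counts of 24391 mapped reads in the control and 11 of 5424 with IMT1. These were 2747 and 2028 per 1000000 mapped reads, and no counting interval was computed on this scale. Among the untreated and control libraries, the TRNS2 level of the H23 IMT1 library lay below all 5 of that line, and those of H1437 and PC9 lay above replicate 1 and below the other 3.

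TRNH and TRNL2 did not share this direction in H1437. TRNH stood at 71.7 CPM in the H1437 control and 80.1 with IMT1, at 609 and 216 in H23, and at 249 and 25.4 in PC9. TRNL2 stood at 47.8 and 56.9 in H1437, at 203 and 61.5 in H23, and at 13.3 and 3.91 in PC9, the last from 9 and 2 counts. In H1437 the counting intervals of control and IMT1 overlapped for both genes. The mean log2 ratio was -1.54 ± 1.73 for TRNH and -1.08 ± 1.15 for TRNL2 (SD, n = 3 pairs), each with an exact sign-flip permutation P of 0.50. Per 1000000 mapped reads the log2 ratios of TRNH were 2.37, 0.14, and -2.52 in H1437, H23, and PC9, and those of TRNL2 were 2.46, -0.09, and -0.997. On gene rows TRNL2 was higher with IMT1 in H1437 (0 and 1 counts) and in H23 (11 and 22 counts, 19.9 and 36.6 CPM). It was lower in PC9 (9 and 1 counts). The gene-row share of TRNL2 was 0% in the control and 3.70% with IMT1 in H1437, 9.82% and 59.5% in H23, and 100% and 50% in PC9. For TRNH it was 45.5% and 94.7%, 37.5% and 59.2%, and 97.6% and 92.3%.

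**Figure D5:**
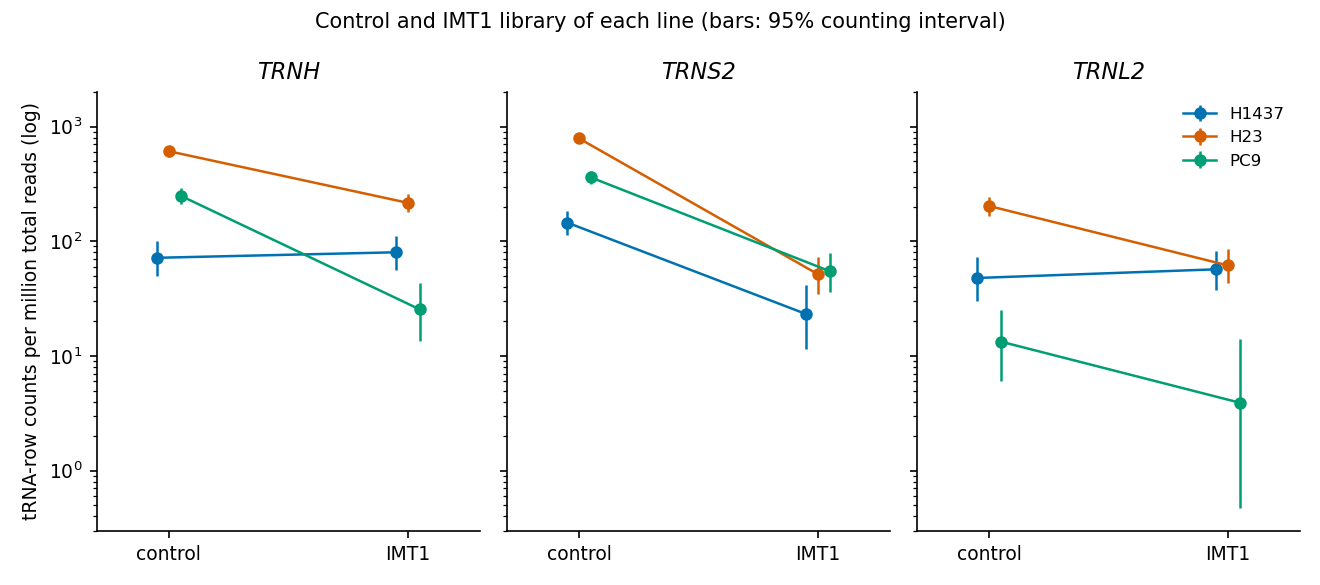
Counts on the tRNA row in CPM (log axis) of TRNH, TRNS2, and TRNL2 in the control and IMT1 library of each line, with exact Poisson 95% intervals. TRNS2 is lower with IMT1 in each line, by 6.28-fold to 15.3-fold, whereas the intervals of TRNH and of TRNL2 overlap in H1437.

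Of the 37 genes, 13 were lower in all 3 lines (35.1%) and 0 were higher in all 3 (0%). In this cluster 1 of 3 genes was lower in all 3 lines, a share near that background, and 6 of the 19 other tRNA genes were. The median of the mean log2 ratios was -0.76 over all genes with a value and -0.77 over the 19 other tRNA genes. With edgeR on gene rows, with the line as a block, 0 of 33 genes were called (0%) and 2 had an unadjusted P under 0.05. TRNS2 was among the latter, and edgeR put its log2 fold change at -2.77 (SE 1.095, adjusted P = 0.461). With DESeq2, 3 of 33 genes were called, all of them lower (9.09%), and TRNS2 was 1 of these (log2 fold change -2.66, SE 0.55, adjusted P = 2.6e-05). TRNH gave -0.38 (SE 1.35, adjusted P = 0.972) in edgeR, and the TRNL2 gene row did not pass the filter on low counts.

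The makeup of the cluster was set side by side in control and IMT1 libraries. TRNS2 took 54.9% of the summed counts of the 3 genes in the H1437 control and 14.5% with IMT1, and 49.3% and 15.7% in H23. In PC9 it took 57.9% and 65.1%. TRNH took 27.0% of the sum in the control and 50% with IMT1 in H1437, 38.1% and 65.7% in H23, and 40% and 30.2% in PC9. The IMT1 sums were 76, 198, and 43 counts, and the mapped share of reads was 5.30% in the control and 1.14% with IMT1 for H1437, 30.5% and 9.83% for H23, and 6.73% and 3.94% for PC9. The untreated H1437 replicates 1, 2, and 3 had TRNS2 shares of 8.86%, 56.8%, and 11.2%, so that the H1437 share with IMT1 lay above 2 of them. The Wilson 95% intervals of control and IMT1 overlapped in PC9 for TRNS2 (53.1% to 62.5% and 50.2% to 77.6%) and for TRNH (35.4% to 44.8% and 18.6% to 45.1%).

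In the H23 libraries of the knockdown experiment there is no replicate and no test. The control held 175 counts of TRNH, 124 of TRNS2, and 35 of TRNL2, or 791, 561, and 158 CPM. The ADAR1 KD library held 1, 2, and 0 counts, or 26.9, 53.9, and 0 CPM. The ratio of control to knockdown was 29.4 for TRNH (95% counting interval 5.20 to 1166) and 10.4 for TRNS2 (2.82 to 86.9). Per 1000000 mapped reads the log2 ratio of knockdown to control was -2.78 for TRNH and -1.28 for TRNS2, and as a share of the tRNA rows it was -2.65 and -1.15. TRNL2 was at least 1.96-fold lower, taking 3 counts in the knockdown library as the floor. Of the 37 genes, 33 were more than 2-fold lower (89.2%), TRNH and TRNS2 among them. The ADAR1 KD library had 37113 total reads, against 221155 in the control, and 11.0% of its reads were mapped, against 47.2%. In the control the gene-row share was 5.14% for TRNH and 2.86% for TRNL2, and 100% for TRNS2.

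The genes whose levels per 1000000 mapped reads were most like those of the cluster across the 17 libraries were mostly other tRNA genes. For TRNH they were TRNE (Spearman's rho 0.86), TRNS2 (0.83), and TRNL2 (0.82). For TRNS2 they were TRNF (0.87), TRNH (0.83), and TRNE (0.81), and for TRNL2 they were TRNE (0.85), TRNK (0.83), and TRNS1 (0.82, tied with TRNH). TRNE, the tRNA-Glu gene of the opposite strand, was thus among the 3 nearest for each gene. ND4 and ND5 had rho values of 0.05 and 0.04 with TRNH on this scale, of -0.13 and -0.04 with TRNS2, and of 0.33 and 0.38 with TRNL2. The libraries share lines and a denominator, and these values are descriptions.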

How the data were processed

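J2 RIP-seq libraries were analyzed from the authors' deposited tables. The authors base-called with Dorado, aligned them with minimap2 2.17-r941 to a reference that held the mitochondrial genome only, and deposited raw counts of 99 features from featureCounts in long-read mode (minimum overlap of 6 bases, no multi-mapping reads), without normalization. They also deposited mapped and total reads per library from samtools 1.10 and a percent of mapped reads, which was recomputed here from these counts. With such a reference, reads of nuclear copies of mitochondrial sequence cannot be told from mitochondrial ones. Tools and versions follow the methods and the submitters' processing notes.

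From these counts, counts per 1000000 total reads (CPM) and ratios of rows were computed in Python 3.11.15 with scipy 1.17.1. Intervals are 95% exact Poisson or Wilson intervals that cover counting error alone, because amplified reads carry no molecular identifiers. Lines were compared by exact permutation tests (smallest P of 0.10 for 3 against 3) and IMT1 pairs by exact sign-flip tests. Gene rows that reached 10 counts in 3 or more libraries were tested with edgeR 4.0.16 (quasi-likelihood, TMM, Benjamini-Hochberg) in R 4.3.3, with DESeq2 1.42.0 as an alternative. Both scripts were tested on simulated data. The edgeR check required recovery only at a dispersion (spread between libraries) far below the 1.70 fitted to the untreated libraries. No replicates agreed within sampling noise (chi-square over degrees of freedom of 35.5 or more), and none were merged. Same-numbered H1437 and PC9 libraries deviated together from their line means (correlations of 0.956, 0.877, and 0.941 over 35 genes), whereas those with H23 ran from -0.779 to 0.331. These correlations come from the same gene-row counts, and the labels do not say that same-numbered libraries were made together. The main comparisons of lines were therefore unpaired, and pairing was used in alternatives with a replicate block.

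The genes and lists were chosen with earlier results of these data known. Named genes were the 3 cluster genes, ND4 and ND5 as neighbours, and the 3 genes nearest to each by Spearman's rho. The other genes of the TRNI and TRNW clusters were named as comparison lists. Leaving out H1437 replicate 1 and PC9 replicate 1 together, using exon rows, and the unpaired fit of 2 lines alone were chosen after seeing the data.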

Additional observations from a re-analysis of the deposited data

Results flagged for a closer look

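Among the untreated and control libraries of each line, 9 groups of 4 or 5 libraries (3 genes in 3 lines) were examined for a library far from the rest, and 3 were found. For independent normal values about 1 group in 20 would be by chance, and these groups share libraries. H1437 replicate 3 had 11223 TRNH counts per 1000000 total reads (CPM), and its gap to the next library was 0.97 of the range of the 4 H1437 libraries. H23 replicate 2 had 2472 TRNH CPM (0.74 of the range of 5 libraries) and 3931 TRNS2 CPM (0.90 of the range).

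The sign of the log2 ratio of IMT1 to control in CPM differed between lines for TRNH and TRNL2. The log2 ratio in H1437 was 0.16 for TRNH and 0.25 for TRNL2, with overlapping counting intervals, while it was below 0 in H23 and PC9 for both genes. Per 1000000 mapped reads TRNH in H23 was at 0.14. On gene rows in CPM, TRNH in H1437 was at 1.22, and TRNL2 was higher with IMT1 in H1437 and H23 and lower in PC9. Each line has 1 pair of libraries, and the difference between lines was not tested.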

How the results depend on the processing

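Of 363 recomputed values, 316 were labelled as unchanged, by a rule that differed with the kind of result. Exact tests across lines were judged on their side of the threshold alone, so that a new highest line did not count as a change. Mean log2 ratios with IMT1 were judged on their sign alone, and edgeR fold changes on sign and threshold. Counts of genes were judged on their size, and knockdown ratios on their sign and the counting interval. No alternative brought the exact test across lines of TRNH, TRNS2, or TRNL2 under an adjusted P of 0.05. Leaving out each replicate in turn gave adjusted P of 0.292 to 0.968 for TRNH, 0.414 to 0.968 for TRNS2, and 0.274 to 0.878 for TRNL2. The line with the highest mean changed in 2 of 18 alternatives for TRNH, 3 for TRNS2, and 7 for TRNL2, so that no order of the lines holds for TRNL2. TRNH was highest in H23 without H1437 replicate 3. The count of genes called by the exact test went from 0 to 13 of 37 with all untreated and control libraries and to 20 without the knockdown control, none of them in the cluster, and these settings add libraries. The replicate block left the exact test at adjusted P of 0.806, 0.756, and 0.514 for the 3 genes. In edgeR the block together with these lines alone moved the count of calls in H1437 against PC9 to 10, while the block with all 3 lines and these lines alone without it each gave 0, and no other count changed with the block. DESeq2 called 4 genes in H23 against H1437, 2 in H23 against PC9, and 3 with IMT1, and gave TRNH no P in the line contrasts. In that tool TRNS2 passed with IMT1 at a log2 fold change of -2.66. The causes were not tested.

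Log2 fold changes that turned sign in edgeR were as follows. For H23 against H1437, TRNH gave 0.77 with the replicate block and 0.91 with it in these lines alone, and -6.13 to 0.72 when each replicate was left out. TRNS2 gave 1.38 with total reads as library size, 0.0072 without a filter, 2.64 with the block, 1.24 with it in these lines alone, and -1.66 to 1.13 without each replicate. For H23 against PC9, TRNH gave 0.97 with total reads, 2.34 and 1.21 with the blocks, and -3.28 to 0.87 without each replicate. TRNS2 gave 1.61, 2.54, 1.52, and -1.67 to 1.04. TRNL2 gave 1.72 with total reads, 0.15 without a filter, 0.25 on tRNA, CDS, and rRNA rows, and -1.75 to 0.29 without each replicate. For H1437 against PC9, TRNS2 gave -0.058 with these lines alone and unpaired, -0.061 without replicate 1 of both lines, -0.064 without a filter, -0.10 with the block, and -2.01 to 2.11 without each replicate. TRNH ran from -2.42 to 5.78 and TRNL2 from -0.87 to 4.08, both negative without H1437 replicate 3, while the block with these lines alone gave 1.94 and 2.43. None of these passed the threshold except the last pair.

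The mean log2 ratio of TRNL2 with IMT1 was 0.46 per 1000000 mapped reads, and that of TRNH in edgeR ran from -1.56 to 1.099, the latter without the PC9 pair. The spread of line means in the TRNS2 row share was 0 percentage points without H1437 replicate 1, alone or with PC9 replicate 1, and 0 to 50 over all left-out replicates. It ran from 2.87 to 34.6 for TRNH and from 12.4 to 57.7 for TRNL2. The log2 ratio of TRNS2 in the ADAR1 KD library was -1.28 per 1000000 mapped reads and -1.15 as a share of the tRNA rows. Gene rows gave no mean log2 ratio with IMT1 for TRNL2 and no knockdown ratio for TRNH or TRNL2, whose counts there include 0. Low counts limit TRNL2, PC9 replicate 1, and the ADAR1 KD library.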
